A study of Mus musculus with 16 samples.

Results

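Metabotropic glutamate receptors are G protein-coupled receptors that sense glutamate on neurons and glia. The family is divided by sequence and signalling into group I, which couples to Gq and phospholipase C, and groups II and III, which couple to Gi/o and lower cyclic AMP. Group I receptors sit mainly beside the postsynaptic density, whereas group II and III receptors act largely as presynaptic brakes on transmitter release, and mGlu3 is also found on astrocytes. Here, 6 genes of the family (Grm2, Grm3, Grm4, Grm5, Grm7 and Grm8) were taken from the 36930 entries of the deposited table by their gene symbol. Each symbol stood for 1 entry, and all 6 genes were among the 21183 entries that passed the filter on low values.

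The table holds RNAseq of brain cortices of 16 C57BL6 pups taken at P7, 8 Avil-ChR2 and 8 ChR2-flfl. All pups carried the floxed channelrhodopsin-2 (ChR2)/tdTomato transgene of the Ai27 line at the Rosa26 locus and spent 1 h per day in blue light on P1 to P5. Avil-ChR2 pups also carried Cre recombinase driven by the advillin (Avil) promoter, which is active in peripheral sensory neurons, and thus expressed ChR2, whereas ChR2-flfl pups had no Cre and were not light sensitive. The genotype comparison therefore asks whether light stimulation of sensory neurons in early life goes along with other levels of these receptor transcripts in the cortex, and Cre itself cannot be told apart from the stimulation. The tissue was whole cortex, so that fewer cells of a type and less RNA per cell cannot be told apart.

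The values are normalized reads, i.e. counts per gene scaled to depth with TMM factors (TMM CPM). The reads behind them summed to 30549126 in ChR2-flfl replicate 3 and to between 47791532 and 48711134 in the other pups. Avil had 0.825 to 1.46 normalized reads in ChR2-flfl and 37.3 to 46.4 in Avil-ChR2 pups, which separated the genotypes as labelled. The cortical marker Tbr1 had values in all pups, with a mean of 106 normalized reads in either genotype, and the pallial marker Emx1 had 16.3 in ChR2-flfl and 16.7 in Avil-ChR2 cortices. The Y-linked genes Ddx3y, Eif2s3y, Kdm5d and Uty separated 8 male from 8 female pups as listed in the study's gene sheet, including Avil-ChR2 replicate 4, which is female in the sample labels. The pup numbers form 2 runs, 26 to 33 and 35 to 42, each with 4 Avil-ChR2 and 4 ChR2-flfl pups, and what the runs stand for is not given.

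Per kb of transcript, Grm5 and Grm3 were the most abundant of the 6 receptor genes and Grm8 was the least abundant. Levels of different genes were set against each other only after division by the length of the longest annotated transcript (GENCODE vM21), which was 8047 bp for Grm5, 3049 bp for Grm3, 4210 bp for Grm7, 4711 bp for Grm2, 4607 bp for Grm4 and 4799 bp for Grm8. Over all 16 pups, Grm5 had 39.7 ± 1.84 TMM CPM per kb (SD, n = 16). Grm3 followed with 38.6 ± 3.59 (SD, n = 16), and its range overlapped that of Grm5, which was the higher of both in 11 of 16 pups. Grm7 had 23.4 ± 1.09 TMM CPM per kb (SD, n = 16), below Grm3 in every pup. Grm2 had 15.8 ± 1.43 (SD, n = 16), and its highest pup stayed below the lowest pup of Grm7.

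Grm4 and Grm8, the remaining genes of group III, stood far below the others. Grm4 had 5.17 ± 0.642 TMM CPM per kb (SD, n = 16), on average 3.08-fold less than Grm2 in the same pup. Grm8 had 3.56 ± 0.308 (SD, n = 16), and its range did not reach that of Grm4, although by a narrow margin, with a highest value of 4.05 against a lowest value of 4.06. The order of the upper genes depended on the length used. Per kb of coding sequence, Grm5 had 88.6 TMM CPM per kb and stood alone at the top, before Grm3 with 44.6, Grm7 with 35.6 and Grm2 with 28.5. With the median length of the coding transcripts, Grm7 with 55.6 was above Grm3 with 38.6. Grm4 and Grm8 were the lowest genes with each of the 3 lengths.

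**Figure D1:**
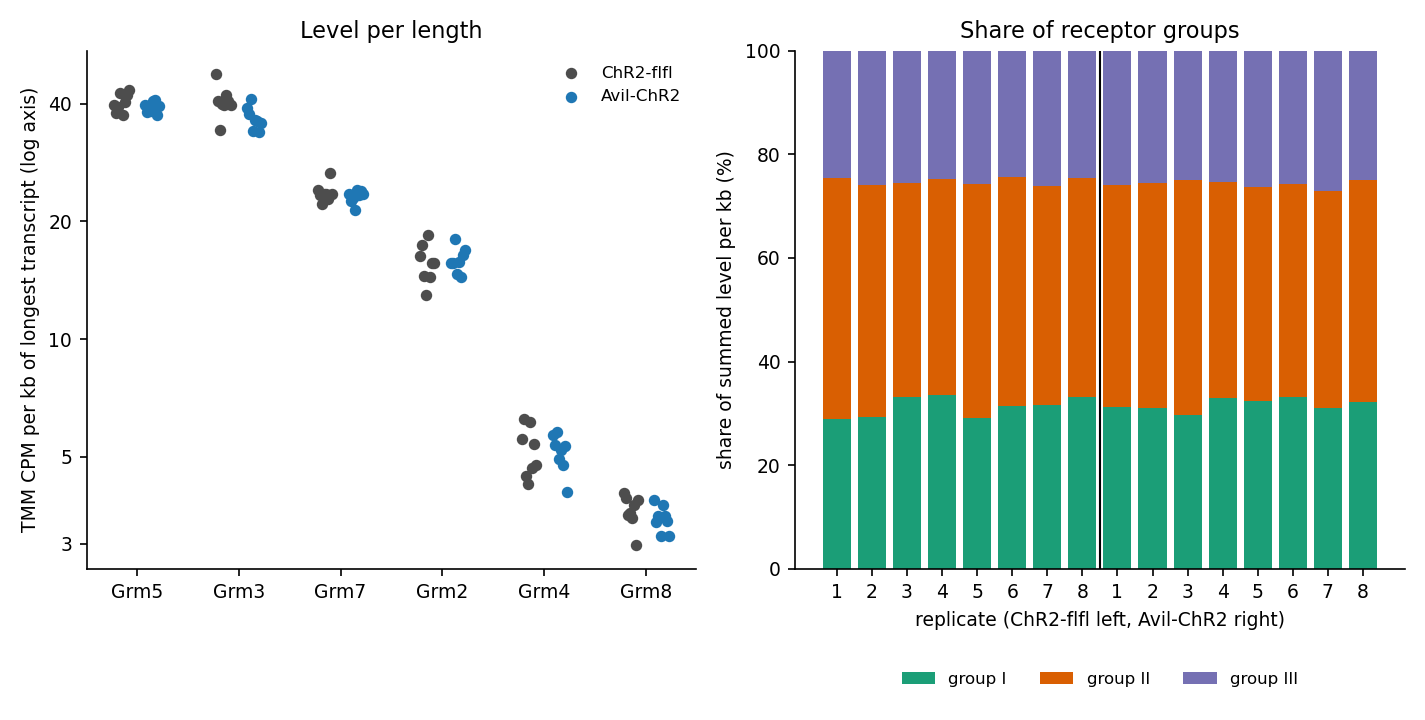
Left, TMM CPM per kb of the longest transcript on a log axis for each receptor gene, with 1 point per pup and the genotypes side by side. Right, share of receptor groups I (Grm5), II (Grm2 and Grm3) and III (Grm4, Grm7 and Grm8) in the summed level per kb of each pup. Grm5 and Grm3 overlap near 40 TMM CPM per kb, Grm4 and Grm8 lie below 10, and the shares are alike in all pups.

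Summed over the 6 genes, the largest share of the level per kb of the longest transcript was that of group II, but this depended on the length used. Group II accounted for 43.5% ± 1.91 in ChR2-flfl (SD, n = 8) against 42.6% ± 1.45 in Avil-ChR2 (SD, n = 8). Grm5 alone made up 31.3% ± 1.98 in ChR2-flfl (SD, n = 8) against 31.7% ± 1.20 in Avil-ChR2 (SD, n = 8). Group III accounted for 25.2% ± 0.718 (SD, n = 8) and 25.7% ± 0.729 (SD, n = 8), respectively. These shares overlapped between the genotypes and are given as a description. Per kb of coding sequence, Grm5 had the largest share over all 16 pups, with 41.8% ± 1.82 (SD, n = 16) against 34.4% ± 1.64 for group II (SD, n = 16). With the median length of the coding transcripts, the shares were close, with 33.5% ± 1.57 for Grm5 (SD, n = 16), 34.2% ± 1.61 for group II (SD, n = 16) and 32.3% ± 0.723 for group III (SD, n = 16). Grm6, the receptor of retinal bipolar cells, had values in 9 of 16 pups, with at most 7 reads in a pup, and did not pass the filter.

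Between the genotypes, the receptor genes differed little. With limma and Benjamini-Hochberg adjustment over 21183 genes, none of the 6 genes had an adjusted p under 0.05. Of all genes, 0.00944% passed this threshold, namely the driver gene Avil and Mars. At an unadjusted p under 0.05, 1 of 6 receptor genes (Grm3) passed, where 5.41% of all genes did, and 3.46% of all genes passed with lower values in Avil-ChR2. The log2 differences (Avil-ChR2 minus ChR2-flfl) of the 6 genes lay between -0.14 and 0.03, beside a median of 0.0020 over all genes. Differences of this size were hard to detect with 8 pups per genotype. In data simulated with the means and spread of all 21183 genes, limma recovered 0.5% of 200 genes changed by 0.1 on the log2 scale. It recovered 43.5% of those changed by 0.2 and 87.5% of those changed by 0.5. The changed genes had mean log2 values of at least 0, and all genes were drawn independently. With 200 genes changed at once by 0.2, 90 genes were called, whereas 2 were called in the real data. The adjusted threshold is easier to pass when more genes are called. The rates can therefore be too high where few genes differ. They are averages over genes. Grm5 and Grm7 had standard errors of 0.032 and 0.033, beside a median of 0.070 over all genes.

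Grm5, the Gq-coupled receptor that dominates group I in the forebrain, lies on chromosome 7 (GRCm38, plus strand) from 87583981 to 88135063. It had between 300 and 349 normalized reads in ChR2-flfl pups with a median of 322, and between 301 and 330 in Avil-ChR2 pups with a median of 313, from 9755 to 16882 reads per pup. The genotypes overlapped, but 3 ChR2-flfl pups were above the highest Avil-ChR2 pup. ChR2-flfl cortices had a mean of 324 ± 17.7 (SD, n = 8) and Avil-ChR2 cortices of 315 ± 10.2 (SD, n = 8). The log2 difference was -0.04 (95% interval -0.11 to 0.03, limma adjusted p = 0.945), so that the mean level in Avil-ChR2 lay between 92.8% and 102% of that in ChR2-flfl. Of the 6 genes, Grm5 had the narrowest interval.

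Grm3, a group II receptor of neurons and astrocytes, was lower in most Avil-ChR2 pups. It lies on chromosome 5 (minus strand) from 9485236 to 9725352. ChR2-flfl pups had 104 to 145 normalized reads with a median of 123, and Avil-ChR2 pups had 103 to 125 with a median of 110, from 3222 to 7029 reads per pup. The ChR2-flfl mean was above 7 of 8 Avil-ChR2 pups and the lowest ChR2-flfl pup above 2 of them, and 2 ChR2-flfl pups were above the highest Avil-ChR2 pup. The highest value was that of ChR2-flfl replicate 1, and the lowest of the ChR2-flfl group was that of replicate 3, the pup with the fewest reads. ChR2-flfl cortices had a mean of 123 ± 11.2 (SD, n = 8) and Avil-ChR2 cortices of 112 ± 7.41 (SD, n = 8). The log2 difference was -0.14 (95% interval -0.25 to -0.03), or 90.7% of the ChR2-flfl level. Its unadjusted limma p was 0.0121 and its adjusted p 0.825, and 304 of the 21183 genes had a p as small or smaller.

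The lower Grm3 values were seen most clearly in the second run of pups. In pups 35 to 42, the 4 Avil-ChR2 pups had 103 to 111 normalized reads and the 4 ChR2-flfl pups 121 to 128, without overlap. Within this run, 1.73% of all genes had all Avil-ChR2 pups below all ChR2-flfl pups, and Grm3 was the only one of the 6 receptor genes among them. The log2 difference within the run was -0.19 (95% interval -0.27 to -0.11), with a limma adjusted p of 0.884. In pups 26 to 33 the groups overlapped, with 104 to 125 normalized reads in Avil-ChR2 and 104 to 145 in ChR2-flfl pups, and the log2 difference was -0.09 (95% interval -0.28 to 0.10, limma adjusted p = 1.00). The difference between the runs was itself not significant, with an interaction of -0.10 (standard error 0.102, limma adjusted p = 1.00).

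The other group II receptor, Grm2, did not follow Grm3. This presynaptic autoreceptor gene is short for the family and lies on chromosome 9 (minus strand) from 106644534 to 106656109. ChR2-flfl pups had 61.2 to 86.9 normalized reads with a median of 73.8, and Avil-ChR2 pups had 68.0 to 84.8 with a median of 74.0, from 2116 to 4212 reads per pup. The Avil-ChR2 pups lay within the range of the ChR2-flfl pups. The means were 73.9 ± 8.17 (SD, n = 8) and 75.05 ± 5.48 (SD, n = 8), and the log2 difference was 0.03 (95% interval -0.10 to 0.15, limma adjusted p = 0.986). Its sign turned with the pups in the fit. Within each pup, Grm3 per kb was on average 2.60-fold that of Grm2 in ChR2-flfl (range 2.15 to 3.06) and 2.31-fold in Avil-ChR2 cortices (range 2.06 to 2.50), which is a description without a test.

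**Figure D2:**
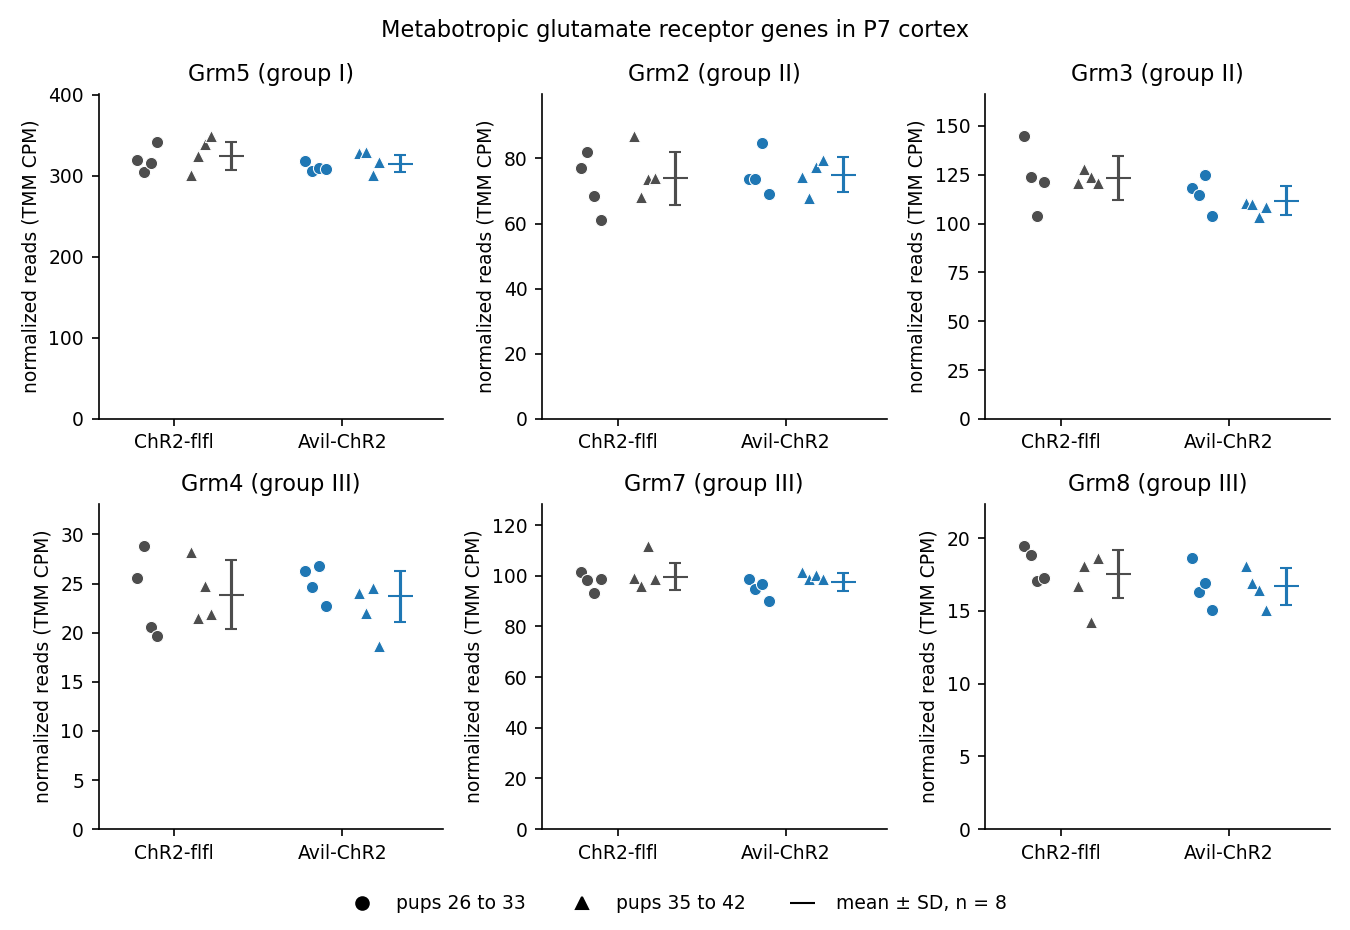
Normalized reads (TMM CPM, axes from 0) of the 6 receptor genes, with 1 point per pup, circles for pups 26 to 33 and triangles for pups 35 to 42, and the mean ± SD of 8 pups beside the points. The genotypes overlap for every gene over all 16 pups, and for Grm3 the triangles of the genotypes are apart, with 103 to 111 in Avil-ChR2 and 121 to 128 in ChR2-flfl.

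Group III receptors, which sit at the presynaptic active zone, showed no difference past the threshold. Grm7, the most abundant of the group, lies on chromosome 6 (plus strand) from 110645458 to 111567230. It had 93.0 to 112 normalized reads with a median of 98.9 in ChR2-flfl pups and 90.1 to 101 with a median of 98.6 in Avil-ChR2 pups, and apart from ChR2-flfl replicate 7 at the upper end and Avil-ChR2 replicate 4 at the lower end the values were close together. The means were 99.7 ± 5.45 (SD, n = 8) and 97.5 ± 3.60 (SD, n = 8), a log2 difference of -0.03 (95% interval -0.10 to 0.04, limma adjusted p = 0.964). Without ChR2-flfl replicate 7 the difference was -0.0077.

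Grm8 lies on the same chromosome (minus strand) from 27275121 to 28135837. It had 14.3 to 19.4 normalized reads with a median of 17.6 in ChR2-flfl pups and 15.04 to 18.6 with a median of 16.7 in Avil-ChR2 pups, from 527 to 943 reads per pup. The ranges overlapped over most of their length, and the ChR2-flfl mean was above 6 of 8 Avil-ChR2 pups. The means were 17.5 ± 1.62 (SD, n = 8) and 16.7 ± 1.27 (SD, n = 8), with a log2 difference of -0.07 (95% interval -0.19 to 0.05, limma adjusted p = 0.953). Without ChR2-flfl replicate 7, the lowest pup of its genotype, the difference was -0.11 (limma p of 0.0386 unadjusted, adjusted p = 0.999).

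Grm4 lies on chromosome 17 (minus strand) from 27422387 to 27513679. Its values ranged from 19.7 to 28.8 normalized reads with a median of 23.3 in ChR2-flfl pups and from 18.7 to 26.7 with a median of 24.3 in Avil-ChR2 pups, from 637 to 1389 reads per pup. With means of 23.9 ± 3.48 (SD, n = 8) and 23.7 ± 2.58 (SD, n = 8), the log2 difference was -0.0048 (95% interval -0.18 to 0.17, limma adjusted p = 0.998). The interval was the widest of the 6 genes and ran from 88.4% to 112% of the ChR2-flfl level.

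**Figure D3:**
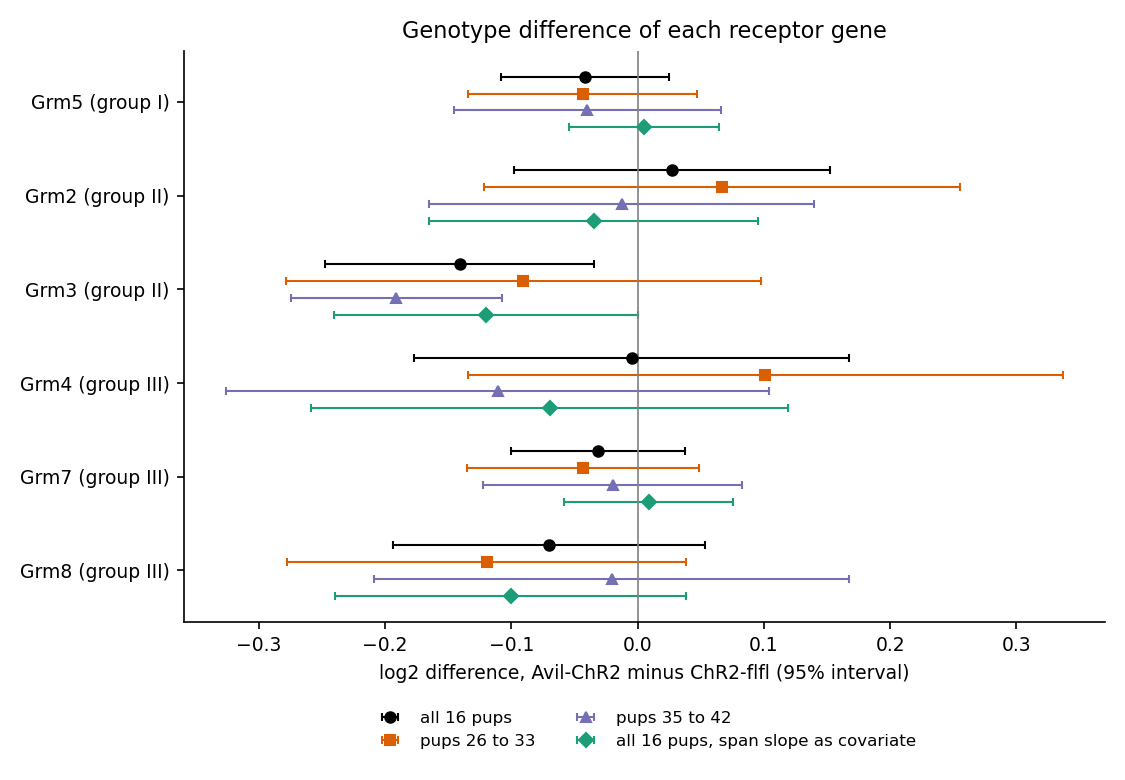
Log2 difference (Avil-ChR2 minus ChR2-flfl) of each receptor gene with its 95% interval, for all 16 pups, for each run of pup numbers alone and for all pups with the span slope as a covariate. The Grm3 points are all below 0, with intervals that exclude 0 in all 16 pups and in pups 35 to 42, whereas the intervals of the other genes include 0 in every fit shown.

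The receptor genes varied unequally between pups of a genotype. Grm4 had a coefficient of variation of 12.7% within genotypes, Grm2 of 9.18%, Grm8 of 8.45% and Grm3 of 7.84%, compared to a median of 5.11% over the 8762 genes whose log2 values averaged 4 to 9. Grm7 with 4.58% and Grm5 with 4.35% were below this median. Counting alone would give 2.97% for Grm4, 3.51% for Grm8, 1.68% for Grm2, 1.34% for Grm3, 1.46% for Grm7 and 0.813% for Grm5. Beside the genes within 0.5 of its own mean log2 value, 94.4% of 2580 genes varied less than Grm4, 92.6% of 2228 less than Grm2, 89.9% of 1681 less than Grm3 and 74.5% of 2322 less than Grm8. For Grm7 and Grm5 these shares were 51.9% of 1917 and 51.4% of 566 genes.

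No receptor gene passed the threshold for sex or for the run of pups. For sex, fitted without Avil-ChR2 replicate 4 and with genotype as a covariate, log2 differences (female minus male) lay between -0.11 for Grm4 and -0.00047 for Grm8, and 0 of 6 genes had an unadjusted limma p under 0.05, where 3.81% of all genes did. Grm7 had the smallest p, with a log2 difference of -0.06 (standard error 0.030, limma p of 0.0833 unadjusted, adjusted p = 1.00). With all 16 pups, this difference was -0.04 with the sexes of the study's sheet (limma p of 0.290 unadjusted, adjusted p = 1.00). With those of the labels it was -0.07 (limma p of 0.0464 unadjusted, adjusted p = 0.988). The labels count Avil-ChR2 replicate 4, a male by its Y-linked genes and the lowest pup for Grm7, as female. This pup was left out of the first fit since its sex differs between the labels and the sheet. For the runs, log2 differences (pups 35 to 42 minus 26 to 33) lay between -0.07 for Grm4 and 0.06 for Grm7, and 0 of 6 genes had an unadjusted limma p under 0.05, where 12.5% of all genes did and 0.123% had an adjusted p under 0.05.

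Grm2 had opposite sex differences in the genotypes, which passed before adjustment only. In ChR2-flfl, males had 77.9 ± 6.22 normalized reads of Grm2 (SD, n = 4) and females 69.9 ± 8.63 (SD, n = 4). In Avil-ChR2, the order was the opposite, with 73.1 ± 4.75 in males (SD, n = 3) and 78.0 ± 5.21 in females (SD, n = 4). The genotype by sex interaction was 0.26 on the log2 scale (standard error 0.114, limma p of 0.0389 unadjusted, adjusted p = 0.987), and it was the only one of the 6 receptor genes with an unadjusted p under 0.05, where 4.72% of all genes passed. For the genotype by run interaction, 0 of 6 genes had an unadjusted p under 0.05, where 3.04% of all genes did, and the smallest p was that of Grm4, with an interaction of -0.21 (standard error 0.162, limma p of 0.208 unadjusted, adjusted p = 1.00).

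Apart from Grm2, these genes are long, and the level of Grm5 went along with a property of the libraries. The genomic span was 11576 bp for Grm2, 91293 bp for Grm4, 240117 bp for Grm3, 551083 bp for Grm5, 860717 bp for Grm8 and 921773 bp for Grm7, compared to a median of 25452 bp over all genes whose log2 values averaged 0 or more. For each pup, a span slope was calculated as the slope of its log2 values, relative to the mean of all pups, on the log10 genomic span over 15131 genes without the receptor genes. The slope ranged from -0.036 to 0.070 in ChR2-flfl and from -0.040 to 0.030 in Avil-ChR2 pups. Over the 16 pups after removal of genotype means, the correlation with the slope was 0.71 for Grm5, 0.59 for Grm7, 0.18 for Grm3, -0.24 for Grm8, -0.34 for Grm4 and -0.45 for Grm2. Without ChR2-flfl replicate 7, the pup with the highest slope, it was 0.69 for Grm5, 0.39 for Grm7 and 0.13 for Grm8. Since the slope and the receptor values come from the same libraries, these are descriptions, and the span did not order them, as Grm8 is the second longest gene.

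In a limma fit with genotype and slope, Grm5 was the only receptor gene whose level was associated with the slope (adjusted p = 0.0368), where 8.51% of all genes were, and Grm7 had an unadjusted limma p of 0.0169 and an adjusted p of 0.114. The slopes were mostly positive in ChR2-flfl and mostly negative in Avil-ChR2 pups. Holding the slope constant can therefore also take out part of the genotype difference. With the slope held constant, the genotype difference of Grm5 was 0.01 (95% interval -0.05 to 0.06) and that of Grm7 0.01 (95% interval -0.06 to 0.08). The fits without the slope had given -0.04 and -0.03. Grm3 kept a difference of -0.12 (95% interval -0.24 to 0.00040), and its unadjusted limma p of 0.0507 was then no longer under 0.05.

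**Figure D4:**
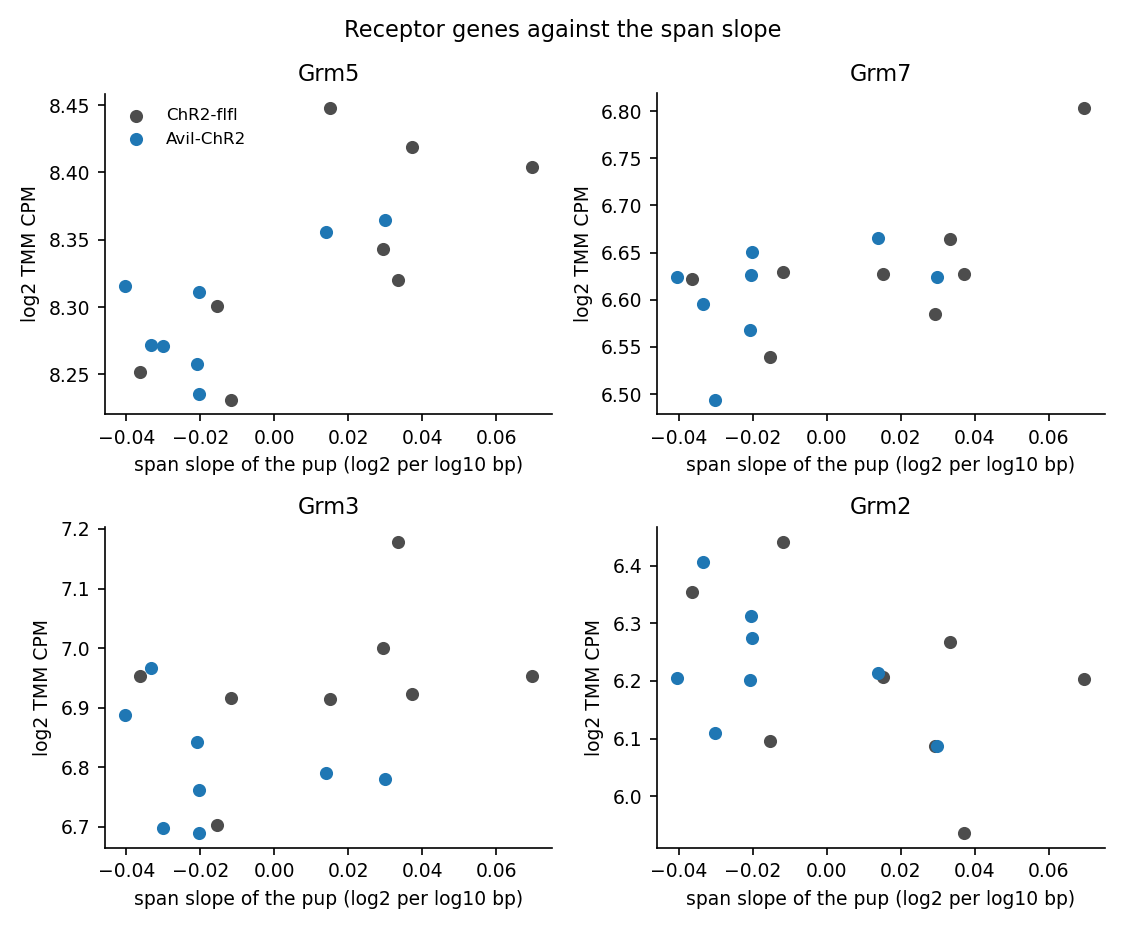
Log2 TMM CPM of Grm5, Grm7, Grm3 and Grm2 against the span slope of each pup (log2 per log10 bp), with 1 point per pup and color for the genotype. Grm5 is higher in pups with a higher slope (correlation of 0.71 within genotypes), Grm7 likewise (0.59) with 1 ChR2-flfl pup far up on the right, Grm3 shows little relation (0.18), and Grm2 tends downward (-0.45).

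The receptor genes were only loosely correlated over the pups. Of the 15 pairs, none had an adjusted p under 0.05 in a two-sided permutation test of the correlation of log2 values after removal of genotype means. The strongest pair was Grm2 and Grm4, with Pearson r = 0.68 (permutation p = 0.00827, adjusted p = 0.124) and Spearman rho = 0.60 (permutation p = 0.0223, adjusted p = 0.272) over 16 pups. Without the 2 pups farthest from the median of Grm2, r was 0.51. The first run of pups alone gave 0.91 and the second run 0.47. After removal of the span slope as well, r was 0.62 for this pair and 0.69 for Grm2 and Grm7, which was then the strongest pair and had 0.23 before. Grm5 went the opposite way to both, with r = -0.57 for Grm2 (permutation p = 0.0402, adjusted p = 0.244) and r = -0.54 for Grm4 (permutation p = 0.0489, adjusted p = 0.244). Spearman rho was -0.45 for Grm2 and Grm5 (permutation p = 0.102, adjusted p = 0.305) and -0.50 for Grm4 and Grm5 (permutation p = 0.0771, adjusted p = 0.289). Without the 2 farthest pups, r was -0.32 for Grm2 and Grm5 and -0.52 for Grm4 and Grm5. Within the runs it was -0.69 and -0.66 for Grm2 and Grm5, and -0.59 and -0.49 for Grm4 and Grm5. For Grm2 and Grm3, the pair of group II, r was 0.32 over all pups, but 0.58 in the first run and -0.40 in the second run.

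Over the same 16 pups, the genes most like each receptor gene were taken from 15131 genes. Pearson's correlation of log2 values after removal of genotype means was used. The 3 highest of 15131 correlations over 16 pups are high also among unrelated genes. No chance level was worked out, so that the genes are listed as a description and not as evidence of a relation. For Grm3 these were Klf7 (r = 0.95), a Krüppel-like transcription factor, Helz (0.89) and Fam78b (0.89). For Grm2 they were B4galt2 (0.93), a galactosyltransferase, Ephb6 (0.89), an ephrin receptor, and Asic1 (0.89), an acid-sensing ion channel. For Grm4 they were Npas2 (0.91), a clock transcription factor, 2900026A02Rik (0.90) and Coro2b (0.90). For Grm5 they were Dzip3 (0.90), Ube3a (0.89), a ubiquitin ligase, and Zfp263 (0.89). The closest genes of Grm7 were Trpv6 (0.90), Atxn1 (0.86) and Trpc4 (0.85). For Grm8 the highest correlations were lower than for the other receptor genes, with Uso1 (0.82), Agbl1 (0.78) and Msh6 (0.78).

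The genes that supply the ligand, bind the receptors and carry their signals also differed little between the genotypes. None of the 60 genes tested from 4 lists had an adjusted p under 0.05. An unadjusted limma p under 0.05 was found for 1.95% of the 21183 genes with higher and for 3.46% with lower values in Avil-ChR2, and the lists, with 0 to 2 such genes each, are given as a description beside these shares. In the list of ligand supply and clearance, 0 of 13 genes were lower and 1 was higher at an unadjusted limma p under 0.05, with a median log2 difference of -0.02. The higher gene was Slc17a7, the vesicular glutamate transporter of cortical excitatory neurons, with a mean of 469 ± 42.9 in ChR2-flfl (SD, n = 8) against 507 ± 28.8 in Avil-ChR2 (SD, n = 8) (log2 difference 0.11, limma p of 0.0304 unadjusted, adjusted p = 0.884).

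Of the receptor partners, 0 of 15 were lower and 2 were higher at an unadjusted limma p under 0.05, with a median log2 difference of 0.01. Grasp (tamalin), a scaffold of group I receptors, averaged 7.75 ± 0.721 in ChR2-flfl (SD, n = 8) against 8.75 ± 0.708 in Avil-ChR2 (SD, n = 8), with 7 of 8 Avil-ChR2 pups higher than the ChR2-flfl mean (log2 difference 0.18, limma p of 0.0133 unadjusted, adjusted p = 0.825). Homer3, which links group I receptors to inositol trisphosphate receptors, had 6.96 ± 0.618 (SD, n = 8) and 7.69 ± 0.597 (SD, n = 8), respectively (log2 difference 0.15, limma p of 0.0307 unadjusted, adjusted p = 0.884). Homer1, of the same family, with a log2 difference of -0.04 and Homer2 with -0.03 did not pass.

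Downstream, 0 of 15 genes of the Gq arm passed in either direction, with a median log2 difference of -0.0027. Rgs4, which speeds up the shut-off of Gq and Gi, was among the genes with the smallest p (log2 difference 0.10, limma p of 0.173 unadjusted, adjusted p = 0.945). In the Gi/o arm, 1 of 17 genes tested was lower and 0 were higher, with a median log2 difference of 0.01. The lower gene was Kcnj6, a G protein-gated potassium channel subunit, with a mean of 39.0 ± 4.40 in ChR2-flfl (SD, n = 8) against 35.0 ± 2.19 in Avil-ChR2 (SD, n = 8), and the ChR2-flfl mean was above all 8 Avil-ChR2 pups (log2 difference -0.15, limma p of 0.0191 unadjusted, adjusted p = 0.841). Its partner subunits Kcnj3 with -0.02 and Kcnj9 with 0.04 did not pass.

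**Figure D5:**
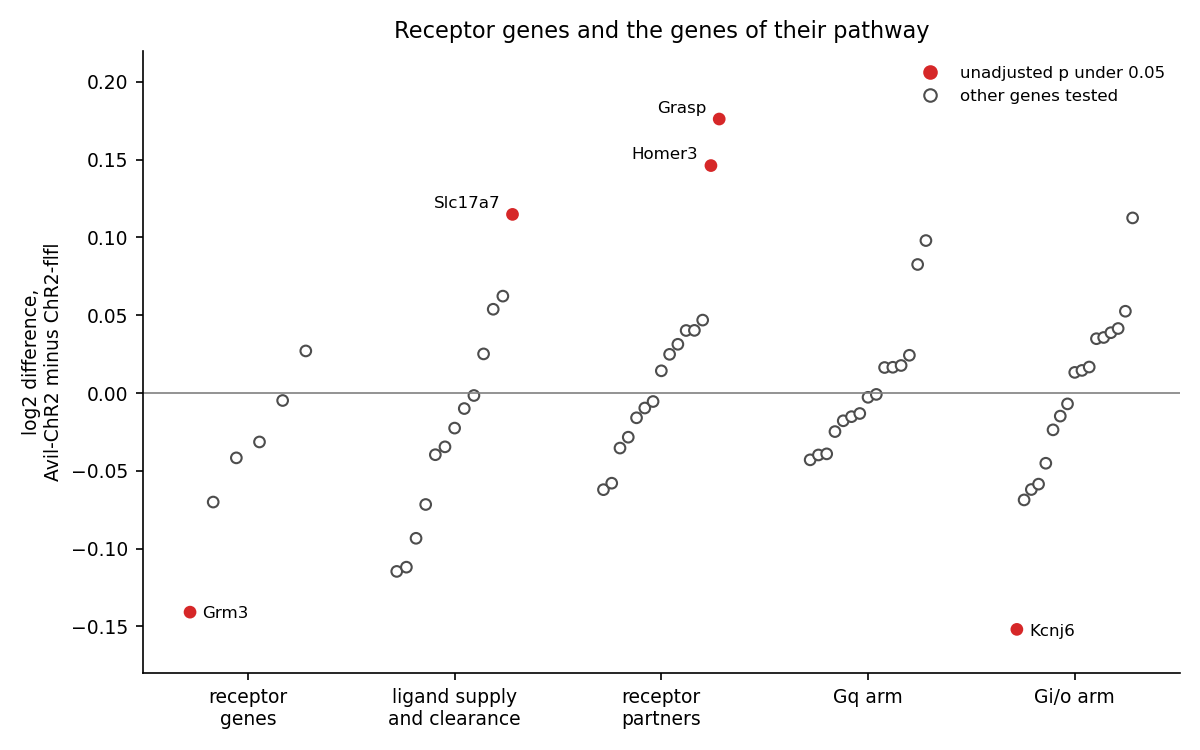
Log2 difference (Avil-ChR2 minus ChR2-flfl) of the 6 receptor genes and of the genes tested from 4 pathway lists, ordered within each list, with 1 point per gene and red for an unadjusted limma p under 0.05. The red points are Grm3 and Kcnj6 below 0 and Slc17a7, Grasp and Homer3 above 0, and no gene shown had an adjusted p under 0.05.

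Cell type markers were inspected beside the Grm3 values. The 6 astrocyte markers (Aqp4, Aldh1l1, Gja1, Slc1a3, Fgfr3 and Gfap) summed to 719 to 898 normalized reads in ChR2-flfl and 796 to 913 in Avil-ChR2 pups, and 5 of 6 had a higher mean log2 value in Avil-ChR2, with 0 of 6 at an unadjusted limma p under 0.05. The 5 markers of excitatory neurons summed to 1782 to 2187 and 1920 to 2219, and the 6 interneuron markers to 299 to 358 and 316 to 374, respectively. Of these lists, only Slc17a7 had an unadjusted limma p under 0.05. The thalamus list summed to 120 to 151 in ChR2-flfl and 114 to 134 in Avil-ChR2 pups, and 4 of its 5 genes had a lower mean in Avil-ChR2, with a median log2 difference of -0.12 and 0 of 5 at an unadjusted limma p under 0.05. The 6 striatum markers summed to 107 to 132 and 97.3 to 144, respectively, with 0 of 6 at an unadjusted limma p under 0.05. The cerebellum list had summed levels of 23.7 to 30.6 and 25.3 to 34.5 and the choroid plexus list of 0.872 to 1.85 and 1.10 to 2.55. Most of the cerebellum sum came from Calb1, which averaged 26.1 in ChR2-flfl and 27.3 in Avil-ChR2. How much thalamic or cerebellar tissue the samples held was not tested. Gabra6 (cerebellar granule cells) had values in 5 of 16 pups. Most of the choroid plexus sum came from Kl, which averaged 1.22 in ChR2-flfl and 1.16 in Avil-ChR2. Ttr (choroid plexus) had values in 14 of 16 pups and at most 1.19 normalized reads. It averaged 0.118 in ChR2-flfl and 0.319 in Avil-ChR2. Its log2 difference was 1.33 (limma p of 0.0491 unadjusted, adjusted p = 0.911), with pups without a value set to the floor of -5. The part of these markers in the Grm3 values was not tested.

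How the table treats overlapping genes bears on such values. Gnaz lies within Rsph14, P2ry12 within Med12l and Xist within Tsix on the other strand, and Gnaz and P2ry12 had no values and Xist had values in 2 of 16 pups, whereas the entries around them had values in all pups, with 242 to 932 normalized reads of Tsix in the 8 female and 0.166 to 0.660 in the 8 male pups. Kcnj13 of the choroid plexus list overlaps Gigyf2 on the other strand over 8446 bp and had no values either. These entries were looked at after their values were seen. The receptor genes were little exposed to this. In the deposited table, Grm2, Grm3 and Grm5 overlap no other entry, Grm8 overlaps a microRNA entry without values, Grm4 overlaps Gm33358 with at most 0.062 normalized reads, and Grm7 overlaps the antisense entry Gm20387 over 459 bp with 1.96 to 3.19 normalized reads, far below those of Grm7.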

How the data were processed

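RNAseq of P7 cortices was analyzed for 8 Avil-ChR2 and 8 ChR2-flfl pups, grouped by the sample labels. The authors prepared stranded mRNA libraries, aligned the reads with SeqMan NGen to the mm10 (GRCm38) genome, counted them per gene in ArrayStar and deposited TMM-scaled CPM, 1 column per pup, with empty cells for genes without reads. Whether counting used the strand is not given in the sources used here. Values of up to 20000 reads were all whole multiples of the value of 1 read, to within 0.05 reads, which gave the reads per gene. Error from counting was worked out from these reads and covers counting only, as no molecular identifiers are described.

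Values were log2 transformed with a floor of -5, and genes above it in at least 12 of 16 pups were fitted with limma 3.58.1 (R 4.3.3, intensity trend, Benjamini-Hochberg over 21183 genes, threshold 0.05). Correlations were tested with 100000 permutations within genotypes. Named genes are the receptor genes, Grm6, check genes, the 3 genes most like each receptor gene, and genes of 4 pathway lists with an unadjusted p under 0.05, otherwise the 2 with the smallest p, and some genes under this rule are not reported here. Homer1, Homer2, Kcnj3 and Kcnj9 were added as relatives, and Mars as a gene called over all genes, after their values were seen. The members and lists were chosen with earlier results of these data known. Scripts were tested on simulated data, and the effect of other filters, scalings, covariates, runs and left-out pups is given in the closing section.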

Additional observations from a re-analysis of the deposited data

Results flagged for a closer look

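ChR2-flfl replicate 7 stood apart from the other 7 pups of its genotype for Grm7, with 111.678 normalized reads. Its distance to the next pup was 0.549 of the range of the group, above the critical value of 0.526 for 8 values. This was the only such value among 12 groups (6 receptor genes in 2 genotypes), and about 1 in 20 groups passes by chance. The same pup had the highest span slope of all pups (0.070) and the lowest value of Grm8 in its genotype (14.3 normalized reads). Without it, the log2 difference of Grm7 was -0.0077 and that of Grm8 was -0.11.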

How the results depend on the processing

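In 29 alternatives, none of the 6 receptor genes had an adjusted p under 0.05, and Grm3 was lower in Avil-ChR2 in each of them, with log2 differences of -0.19 to -0.09 and adjusted p of 0.334 to 1.00. Its unadjusted p was under 0.05 in 27 of 29 and not so with the span slope as a covariate or in pups 26 to 33 only, where 0 receptor genes passed. Without ChR2-flfl replicate 7, Grm8 also passed, giving 2 receptor genes (range 1 to 2 with each pup left out). In that fit, 929 of 21183 genes passed. This pup was the lowest of its genotype for Grm8. Its distance to the next pup was 0.477 of the range, under the critical value of 0.526. Grm8 was lower in all 29. The alternatives refit the same pups or part of them and are not independent of each other, so that a shared sign adds little.

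Small differences changed sign, and the cause was not tested. With the span slope as a covariate, Grm2 was -0.035, Grm5 0.0051, Grm7 0.0087, and the run difference of Grm5 was -0.0066. Grm2 was -0.013 in pups 35 to 42 only. Grm4 was 0.051 with array weights and 0.10 in pups 26 to 33 only. With each pup left out, Grm2 ranged from -0.011 to 0.062 (below 0 without ChR2-flfl replicate 4), Grm4 from -0.043 to 0.043 and Grm3 from -0.18 to -0.11. The sex difference of Grm8 was 0.020 with the study's sexes for all 16 pups.

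Over all genes, 2 had an adjusted p under 0.05, with 1 under the replicate block, the span slope as a covariate and in either run alone, 3 with the pup run as a covariate, and 1 to 2 with each pup left out. At an unadjusted p under 0.05, 672 genes passed in pups 26 to 33 only, instead of 1145. Levels per kb moved with the length used, and so did group shares. In comparisons added later, Grm5 had 33.5% with the median length and 41.8% with the coding length, instead of 31.5%, group II had 34.2% and 34.4% instead of 43.0%, and group III had 32.3% and 23.8% instead of 25.5%. With the replicate block, Grm3 had a log2 difference of -0.14 (limma p of 0.0151 unadjusted, adjusted p = 0.914) and 1091 genes an unadjusted p under 0.05. Same-numbered pups are different animals, and their deviations from the genotype means correlated by -0.34 to 0.39, so that the numbers do not pair them. Of 16 pups, 2 correlated best with the pup of the same number.

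The planned edgeR and DESeq2 fits were not run. limma voom on the recovered reads, chosen after seeing the data, gave -0.14 for Grm3 (p of 0.0105 unadjusted). The run fit without ChR2-flfl replicate 3, also added later, kept all signs, with Grm3 at -0.083 instead of -0.043 (p of 0.0571 unadjusted) and Grm2 at 0.018 instead of 0.031. Grm4 and Grm8 rest on the fewest reads (527 to 1389 per pup).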
